A study of Mus musculus with 6 samples.

Results

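A set of 10 genes of the immediate-early response was followed across the livers of 6 mice of closely related substrains. They are Fos, Fosb, Jun, Junb, Jund, Egr1, Ier2, Ier3, Atf3 and Myc, taken by name as members of this gene class, with earlier results of these data known. All 10 had at least 1 probe set that the platform annotation assigns to a single gene, among 22180 genes measured in that way. Jund had 2 such probe sets and the other genes 1 each, and the probe set with the highest mean stood for the gene.

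The groups were 3 male Balb/c mice, which the labels mark WT, and 3 male Balb/cBy mice, which they mark KD without naming a gene. As background, the BALB/cBy strain has a natural deletion in Acads, a gene of short-chain fatty acid oxidation. From the age of 8 weeks every mouse ate a high-fat diet (fat giving 58% of energy) for 12 weeks, and it was 20 weeks old at collection. No group on another diet is among these samples, so the values describe livers under this diet only. Total liver RNA was hybridized to Affymetrix arrays, 1 per mouse, and the deposited values are log2 RMA signals. A level is therefore given on the log2 scale, where a difference of 1 is a doubling, and the level of a gene was compared between mice, not ranked against that of another member. Levels of other genes served only as a guide to background noise and to find genes of like brightness.

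Immediate-early genes are switched on within minutes of a stimulus, without new protein synthesis, and their transcripts decay quickly. Growth factors, cytokines, stress and tissue handling reach them through MAP kinases and cAMP signalling, which act on the factors SRF and CREB at their promoters. Fos and Jun family proteins pair through leucine zippers to form the AP-1 transcription factor, Egr1 is a zinc finger factor, and Myc drives growth programmes as a partner of Max. In liver the group is known for its rise after partial hepatectomy and injury. Ier2 and Ier3 carry immediate-early names, but Ier3 is better known as a regulator of cell survival than as a transcription factor.

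The promoters of Fos, Jun, Junb and Atf3 are shown as examples. These genes all had their highest value on replicate 2 of each substrain, as described below. So did Fosb, Egr1, Ier2 and Myc, whose promoters are not shown. A link between the marked letters and that pattern was not tested. Each line gives the 130 bases before the transcription start, 5′ to 3′ on the transcribed strand, from RefSeq on GRCm38.p6. Capitals mark TGACG, the core of the cAMP response element, on either strand, and in Jun the related TGACATCA. The Fos stretch is chr12:85473760-85473889 (+), Jun is chr4:95052223-95052352 (-), Junb is chr8:84978749-84978878 (-) and Atf3 is chr1:191183334-191183463 (-).
Fos: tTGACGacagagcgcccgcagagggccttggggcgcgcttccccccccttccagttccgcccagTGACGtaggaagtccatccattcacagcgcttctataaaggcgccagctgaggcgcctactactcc
Jun: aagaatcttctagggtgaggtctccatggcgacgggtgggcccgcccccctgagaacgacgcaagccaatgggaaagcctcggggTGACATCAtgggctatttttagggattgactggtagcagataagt
Junb: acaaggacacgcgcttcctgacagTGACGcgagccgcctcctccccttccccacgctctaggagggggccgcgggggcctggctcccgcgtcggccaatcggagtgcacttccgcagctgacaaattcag
Atf3: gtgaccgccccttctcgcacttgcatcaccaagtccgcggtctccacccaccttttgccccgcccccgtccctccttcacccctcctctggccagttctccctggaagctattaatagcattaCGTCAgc

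Windows from 250 bases before to 50 after the start were read for 7 of the 10 genes: Fos, Fosb, Jun, Junb, Jund, Ier3 and Atf3. Windows of Egr1, Ier2 and Myc were not used here. TGACG on either strand was found in 4 of the 7, in Fos at -129 and -66, Fosb at -60, Junb at -106 and Atf3 at -7, and in 20.8% of 32851 windows of all genes. TGACNTCA, which overlaps the core where N is G, was found in 1 of the 7, Jun, at -45, and in 8.83% of all windows. The full element TGACGTCA (1.79% of all windows), the AP-1 element TGANTCA (7.81%) and the CArG box bound by SRF (1.63%) were found in 0 of the 7. TATAAA was found in 2 of the 7, in Fos at -33 and Junb at 1, and in 13.6% of all windows. The Egr element GCGNGGGCG was found in Fosb alone among the 7, at -50, and in 5.55% of all windows. A match describes the letters only, and the lack of a match speaks for these windows alone.

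None of the 10 genes passed the test of a difference between the substrains. Balb/cBy means were higher for Fos, Jund, Ier3, Atf3 and Myc and lower for Fosb, Jun, Junb, Egr1 and Ier2. With limma, 0 of the 10 passed an adjusted p of 0.05, as did 0.0% of the 23521 probe sets tested, and each of the 10 had an adjusted p of 0.999. At an unadjusted p under 0.05 there were 0 of the 10, beside 3.74% of all genes. The groups overlapped in all 10, while they did not overlap in 7.83% of all genes. The median of the 10 differences was 0.02, against -0.0028 over all genes. Exact two-sided permutation p-values ran from 0.3 to 0.9, and 3 against 3 mice cannot give one under 0.1. Since the labels describe separate biological replicates, these p-values rest on the spread between individual mice.

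**Figure D1:**
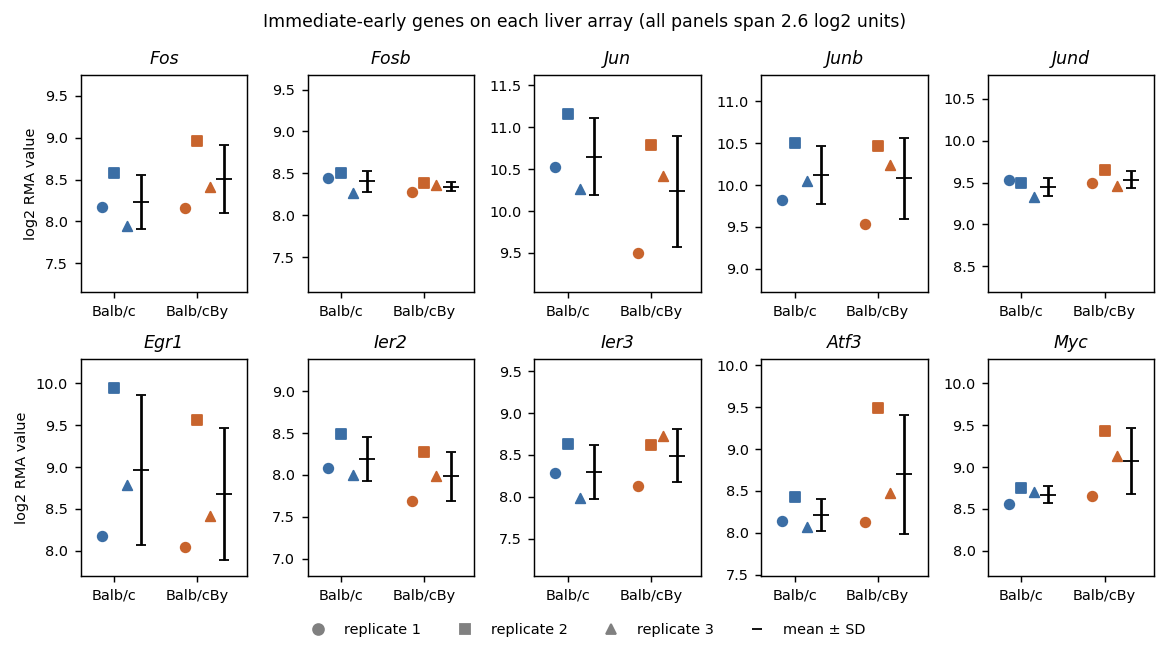
Log2 RMA value of each of the 10 genes on each array, with 1 panel per gene, Balb/c in blue and Balb/cBy in orange, marker shape for the replicate and the mean ± SD (n = 3) beside each group. The groups overlap in every panel, and replicate 2 (square) is the highest of its group in both substrains for 8 of the 10 genes.

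Most of the 10 genes had their highest value on the same mouse of each group. Replicate 2 was the highest of its group for 9 of the 10 genes in Balb/c and for 9 in Balb/cBy, and in both groups for 8. Over all genes replicate 2 was the highest in both groups in 9.83%, replicate 1 in 7.67% and replicate 3 in 5.22%. The 2 exceptions were Jund, highest on replicate 1 of Balb/c, and Ier3, highest on replicate 3 of Balb/cBy. These counts go by rank, and some margins were small. Replicate 2 and the next mouse read 8.50 and 8.45 for Fosb in Balb/c and 8.38 and 8.36 in Balb/cBy. For Myc in Balb/c they read 8.75 and 8.70. The replicate number is only a name here, and the labels tie no Balb/c mouse to a Balb/cBy mouse. Below the top the order differed from gene to gene. This pattern was noticed in the values and is given as a description, with no test. The mean log2 level of the 10 genes was 8.77, 9.25 and 8.74 on Balb/c arrays 1, 2 and 3, and 8.56, 9.36 and 8.96 on the Balb/cBy arrays in the same order.

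Among the Fos family, Fos moved with the mice while Fosb stayed nearly level. Fos, the inducible partner of Jun in AP-1 (probe set 17277387), read 8.17, 8.58 and 7.95 in Balb/c and 8.16, 8.96 and 8.41 in Balb/cBy. Replicate 2 was the highest in each group, and Balb/c replicate 3 the lowest of all. Balb/c averaged 8.23 ± 0.32 and Balb/cBy 8.51 ± 0.41 (SD, n = 3 each), which gives a difference of 0.28 ± 0.23 (SE, 95% interval -0.25 to 0.80). The interval corresponds to 0.844 to 1.74 times the Balb/c level. Fosb, a relative that also pairs with Jun proteins (probe set 17487211), read 8.45, 8.50 and 8.26 in Balb/c and 8.28, 8.38 and 8.36 in Balb/cBy. All 6 mice lay within 0.24 of each other, and the difference was -0.06 ± 0.10 (SE, 95% interval -0.29 to 0.16).

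Jun and Junb ran lowest in Balb/cBy replicate 1, and Jund hardly varied. Jun, the main AP-1 partner of Fos (probe set 17427312), read 10.53, 11.16 and 10.26 in Balb/c and 9.5, 10.79 and 10.42 in Balb/cBy. Replicate 2 was the highest of each group, and the difference between the groups was -0.41 ± 0.34 (SE, 95% interval -1.19 to 0.36). Without Balb/cBy replicate 1 the difference was -0.04. Junb, a Jun relative that is a weaker activator of many AP-1 targets (probe set 17511259), read 9.82, 10.50 and 10.05 in Balb/c and 9.54, 10.47 and 10.24 in Balb/cBy. Its groups had nearly the same mean, 10.12 ± 0.34 and 10.09 ± 0.48 (SD, n = 3 each), with a difference of -0.04 ± 0.25 (SE, 95% interval -0.62 to 0.54). That sign was not stable: it was 0.15 without Balb/c replicate 2 and 0.23 without Balb/cBy replicate 1. Jund, the Jun family member that resting cells make steadily (probe set 17502001), read 9.53, 9.49 and 9.33 in Balb/c and 9.49, 9.65 and 9.46 in Balb/cBy. Its difference was 0.09 ± 0.10 (SE, 95% interval -0.15 to 0.32), and that of its other probe set, 17510127, was 0.07 ± 0.13 (SE).

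Atf3, a stress-induced bZIP factor that often represses its targets (probe set 17231033), stood out in a single mouse. It read 8.14, 8.43 and 8.07 in Balb/c and 8.13, 9.49 and 8.47 in Balb/cBy. The other 5 mice lay between 8.07 and 8.47, and Balb/cBy replicate 2 lay more than 1 above them. The means were 8.21 ± 0.19 and 8.70 ± 0.71 (SD, n = 3 each), and the difference was 0.48 ± 0.31 (SE, 95% interval -0.23 to 1.19). Without Balb/cBy replicate 2 it was 0.09, and without Balb/cBy replicate 1 it was 0.77 (adjusted p = 0.582 by limma).

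Egr1, a zinc finger factor induced by growth and stress signals (probe set 17349514), varied more between mice than any other of the 10. It read 8.18, 9.94 and 8.78 in Balb/c and 8.05, 9.56 and 8.41 in Balb/cBy. Replicate 2 was 1.46 above the mean of the other mice in Balb/c and 1.33 above it in Balb/cBy. Within a substrain the highest mouse had 3.39 times the lowest in Balb/c and 2.84 times in Balb/cBy. The difference between the groups, -0.29 ± 0.49 (SE, 95% interval -1.42 to 0.84), was small beside that spread. Its sign turned without Balb/c replicate 2, to 0.20, and without Balb/cBy replicate 1, to 0.02. The lowest values of Egr1, 8.18 in Balb/c and 8.05 in Balb/cBy, lay near the array noise described below. The folds of 3.39 and 2.84 therefore rest on dim values.

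Myc, the growth-promoting factor that binds DNA with Max (probe set 17311846), had the smallest p of the 10. It read 8.56, 8.75 and 8.70 in Balb/c and 8.65, 9.43 and 9.13 in Balb/cBy. The Balb/c mice were close together, Balb/cBy replicate 1 lay among them, and the other Balb/cBy mice lay above. The means were 8.67 ± 0.10 and 9.07 ± 0.39 (SD, n = 3 each), with a difference of 0.40 ± 0.18 (SE, 95% interval -0.02 to 0.82) and an unadjusted p of 0.0607 in limma's model (adjusted p = 0.999). Without Balb/cBy replicate 1 the groups no longer overlapped, which happens more readily in smaller groups. The difference was then 0.61 (adjusted p = 0.344 by limma). Without Balb/cBy replicate 2 it was 0.22.

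Ier2 and Ier3 varied by less than the doubling that Fos spanned. Ier2, a small nuclear protein of the early growth response (probe set 17511130), read 8.08, 8.49 and 8.0 in Balb/c and 7.69, 8.27 and 7.99 in Balb/cBy. Its difference was -0.21 ± 0.18 (SE, 95% interval -0.62 to 0.20). Ier3, a survival regulator induced by stress and NF-kB (probe set 17337228), read 8.28, 8.63 and 7.98 in Balb/c and 8.13, 8.62 and 8.72 in Balb/cBy, with a difference of 0.19 ± 0.20 (SE, 95% interval -0.27 to 0.66). In Balb/cBy replicates 2 and 3 were both high for Ier3 and differed little from each other. Some values lie near the noise of the arrays: 95% of 1105 olfactory receptor genes, which liver is not known to use, had a mean under 8.02. By mean over 6 arrays 0 of the 10 were under that level, but 3 arrays were for Ier2, 1 for Fos and 1 for Ier3.

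**Figure D2:**
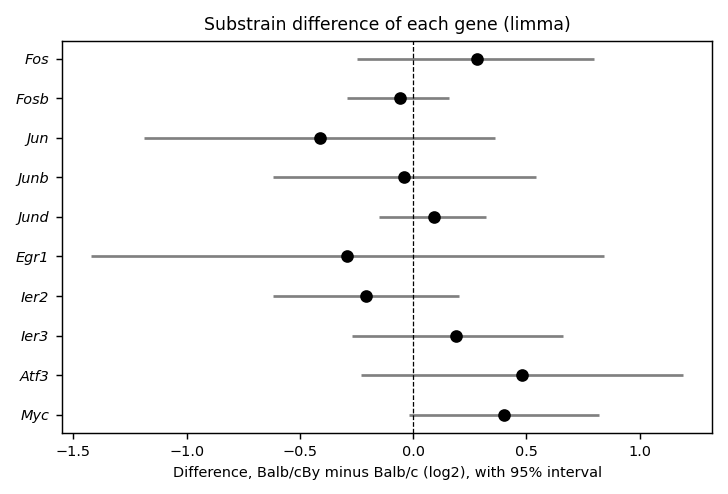
Log2 difference between the substrains for each gene (horizontal axis, above 0 where Balb/cBy was higher), with limma's 95% interval as a line. Every interval includes 0, the widest being that of Egr1 (-1.42 to 0.84) and the nearest to excluding it that of Myc (-0.02 to 0.82).

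The spread between mice of the same substrain was wide for 8 of the 10 genes and narrow for Fosb and Jund. Pooled over both groups, the within-group SD was 0.84 for Egr1, 0.57 for Jun, 0.52 for Atf3, 0.42 for Junb, 0.37 for Fos, 0.32 for Ier3, 0.29 for Myc and 0.28 for Ier2. It was 0.11 for Jund and 0.10 for Fosb, beside a median of 0.14 over all genes. An SD over 0.5 was reached by 3 of the 10 and by 1.32% of all genes. The 6 arrays spanned more than 1 for 4 of the 10 (Fos, Jun, Egr1 and Atf3), against 3.79% of all genes. Egr1 had a larger SD than 99.8% of all genes, and larger than 99.9% of the 2001 genes nearest to it in mean level. For Jund and Fosb the shares were 28.6% and 24.3% of all genes, and for the remaining 7 genes they ran from 89.9% to 99.2%. The difference between the groups was smaller than the wider of the group ranges in all 10, and smaller than both ranges in 8. For Atf3 and Myc it was larger than the Balb/c range, 0.36 and 0.19. The counts against the ranges were not made over all genes, so they are not given as a trait of the 10.

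**Figure D3:**
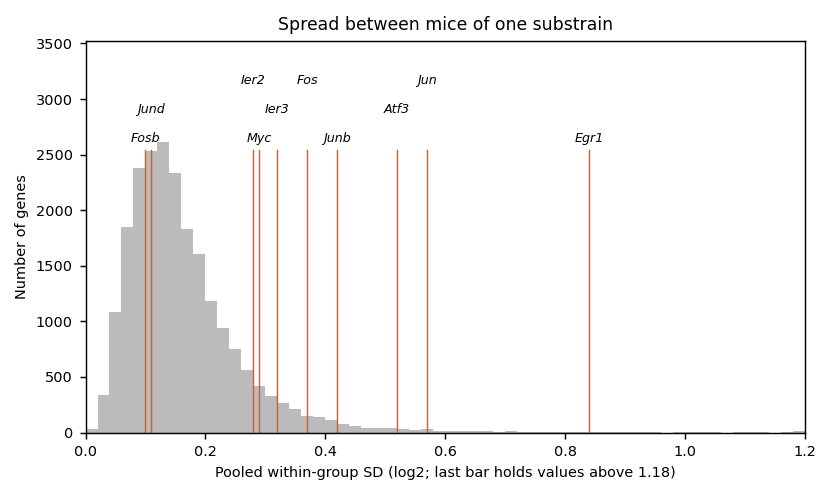
Histogram of the within-group SD of 22180 genes (grey bars, horizontal axis in log2 units, vertical axis the number of genes), with a line for each of the 10 genes. Fosb and Jund sit at the bulk of the distribution near its median of 0.14, and Egr1 at 0.84 lies in its far tail.

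Other immediate-early genes peaked in part on the same mice. From a list of 54 further symbols, older names included, 50 were measured: 28 were higher and 22 lower in Balb/cBy, with a median difference of 0.03, and 0 passed in either direction. Replicate 2 was the highest in both groups for 23 of the 50 (46.0%), beside 9.83% of all genes. This count too goes by rank, however small the margin. Btg2, an antiproliferative gene, read 8.39, 9.21 and 8.73 in Balb/c and 8.44, 10.59 and 9.08 in Balb/cBy. Fosl2, another Fos family member, read 9.14, 9.62 and 8.99 in Balb/c and 9.22, 10.12 and 9.32 in Balb/cBy. Both peaked on replicate 2 in each group, as did the nuclear receptor Nr4a1 (8.97 and 8.67 on replicate 2 of Balb/c and Balb/cBy) and the stress gene Gadd45b (9.72 and 9.36). Klf6, a zinc finger factor, was highest on replicate 3 of Balb/cBy at 10.45, and Egr2 stayed between 8.17 and 8.27 on all arrays. Egr3 was lowest of all on Balb/cBy replicate 2, at 8.06. These values of Egr2 and Egr3 lie close to the olfactory receptor level of 8.02, and 5 of the 50 had a mean under it. An unadjusted p under 0.05 was found for 5 of the 50 (beside 3.74% of all genes), named here after their values were seen. Gadd45g was higher by 0.76, and Bhlhe40 (-0.31), Pim1 (-0.53), Pim3 (-0.35) and Tob1 (-0.51) were lower, each with an adjusted p of 0.999 by limma. Fosl1 was not analysed here.

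**Figure D4:**
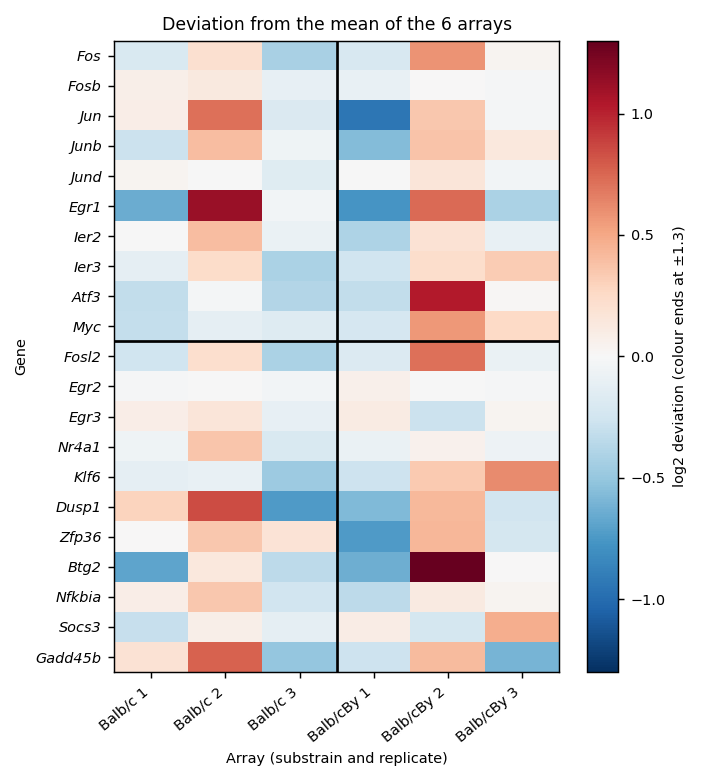
Deviation of each gene from its own mean over the 6 arrays (colour, log2 scale ending at ±1.3) for the 10 genes above the horizontal line and 11 other immediate-early and feedback genes below it, with arrays as columns. Replicate 2 is the highest of its group in both substrains for 8 of the 10 genes and for the others below the line except Egr2, Egr3, Klf6 and Socs3; Jund and Ier3 are the exceptions above it.

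Genes that switch the response off also peaked in part on the same arrays. Of 24 listed feedback inhibitors 24 were measured, with 14 higher and 10 lower in Balb/cBy, a median difference of 0.03 and 0 passing. Replicate 2 was the highest in both groups for 11 of them (45.8%). Among these, Dusp1, Dusp5, Dusp6, Zfp36, Zfp36l2, Nfkbia, Tnfaip3 and Btg2 are also in the list above, so most of this count repeats peaks already given. Dusp1, a phosphatase that inactivates MAP kinases, read 11.14, 11.69 and 10.11 in Balb/c and 10.27, 11.27 and 10.60 in Balb/cBy. Zfp36, which promotes decay of AU-rich transcripts, read 11.11, 11.46 and 11.28 in Balb/c and 10.37, 11.54 and 10.88 in Balb/cBy. Both had their peak on replicate 2 of each group, as did Nfkbia, the inhibitor of NF-kB, at 10.31 and 10.08. Socs3, an inhibitor of cytokine signalling, was highest on Balb/cBy replicate 3 at 9.40, and was lowest of its group on Balb/cBy replicate 2 at 8.70. The Egr corepressors Nab1 and Nab2 differed by -0.10 ± 0.15 and -0.12 ± 0.09 (SE). Nab2 spanned only 0.20 over the 6 arrays.

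For the regulators that act on these promoters the share with replicate 2 highest in both groups was close to that of all genes. The 2 substrains differed in this, as given below. Of 31 listed activators, kinases and coactivators 24 were measured, 19 higher and 5 lower in Balb/cBy, with a median difference of 0.05 and 0 passing. Replicate 2 was the highest in both groups for 3 of them (12.5%). It lay above the mean of the other mice of its group for 8 of the 24 in Balb/c and 22 in Balb/cBy. The median excess was -0.08 in Balb/c and 0.15 in Balb/cBy, beside 0.02 and 0.01 over all genes. Srf, the serum response factor, differed by 0.17 ± 0.17, its cofactor Elk1 by 0.12 ± 0.09 and Creb1 by 0.14 ± 0.14 (SE). Of 17 listed AP-1 partners and related bZIP factors 15 were measured, 11 higher and 4 lower, with a median of 0.03, 0 passing, and 3 highest on replicate 2 in both groups (20.0%).

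Around Myc, its partner Max was higher in every Balb/cBy mouse than in any Balb/c mouse, though it did not pass. The groups did not overlap, in either direction, in 7.83% of all genes. In the Myc-Max network they did not overlap for 3 higher and 1 lower of the 15 measured, Max included. Max read 9.67, 9.40 and 9.57 in Balb/c and 9.74, 10.37 and 10.06 in Balb/cBy, a difference of 0.51 ± 0.16 (SE, adjusted p = 0.999 by limma). Of the Myc-Max network 15 of 16 symbols were measured, 9 higher and 6 lower, with a median of 0.06 and 0 passing, and 0 had replicate 2 highest in both groups. Bmyc, a Myc relative, read 10.11, 10.23 and 10.40 in Balb/c and 10.95, 11.11 and 11.16 in Balb/cBy (adjusted p = 0.177 by limma), Mycn differed by -0.20 ± 0.11 and Mxd1, a Max-binding repressor, by -0.12 ± 0.09 (SE). Of 18 Myc-linked growth genes 17 were measured, 12 higher and 5 lower, with a median of 0.24 and 0 passing. Their mean level was 9.30, 9.02 and 9.24 in Balb/c and 9.24, 9.51 and 9.31 in Balb/cBy, so the groups overlapped.

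Stress genes that act with Atf3 were examined beside it. Of 14 listed 13 were measured, 8 higher and 5 lower in Balb/cBy, with a median of 0.09 and 0 passing, and 5 had replicate 2 highest in both groups (38.5%). Ddit3, a stress factor of the same bZIP class, read 7.57, 7.66 and 7.59 in Balb/c and 7.74, 8.48 and 7.99 in Balb/cBy, a difference of 0.46 ± 0.17 (SE, adjusted p = 0.999 by limma) at levels mostly under 8.02. Its highest mouse was the same as that of Atf3. Atf4, an activator of both, was 8.97 to 9.13 in Balb/c and 9.27 to 9.55 in Balb/cBy, again highest on Balb/cBy replicate 2.

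The genes nearest to each widely varying member were found by the root mean square (RMS) difference over the 6 arrays after centring each gene. Symbols with Gm and a number, Olfr, Vmn, Mir, Snor or Rik were left out of the search. For Fos they were Fosl2 at 0.0776, the Fc receptor gene Fcgr4 at 0.0888 and Slfn2 at 0.0926. For Jun they were Csrnp1 at 0.150, the MHC class II gene H2-Ea at 0.176 and Tlcd2 at 0.209. For Egr1 they were the cytokine gene Il1b at 0.263 and the MHC class II genes H2-Aa at 0.274 and H2-Eb1 at 0.367. Il1b read 7.87, 9.53 and 8.18 in Balb/c and 7.97, 9.39 and 8.64 in Balb/cBy, the same high mice as Egr1. For Atf3 they were Ets2 at 0.148, Cish at 0.155 and Skil at 0.161. With 6 arrays and so many genes searched, near profiles are easily found, so these are descriptions.

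Markers of the cell types in liver were read in the same way. Of 8 Kupffer cell and macrophage markers 8 were measured, and 0 had replicate 2 highest in both groups. Replicate 2 still lay above the mean of the other mice of its group for 7 of the 8 in Balb/c and 6 in Balb/cBy. The median excess was 0.45 and 0.15, beside 0.47 and 0.56 for the 10 genes and 0.02 and 0.01 over all genes. The mean of the macrophage markers was 9.97, 10.17 and 9.35 in Balb/c and 9.60, 9.95 and 10.06 in Balb/cBy. It was thus high on Balb/c replicate 2 and low on Balb/c replicate 3 and Balb/cBy replicate 1. Among neutrophil markers 2 of 7 had replicate 2 highest in both groups, and 4 of 7 lay under the olfactory receptor level. For T and NK cell markers it was 3 of 6, with 3 of 6 under that level, and list means between 7.50 and 7.81 on every array. For endothelial cells it was 0 of 7 and for stellate cells and fibroblasts 1 of 8. For B and plasma cells it was 0 of 5, with 4 of 5 under the olfactory receptor level. For cholangiocytes it was also 0 of 5, with 4 of 5 under that level. The mean of 6 hepatocyte markers, Alb among them, lay between 13.55 and 13.73 on every array. The part of other cells in this pattern of the immediate-early genes was not tested, and in whole liver fewer cells of a type and less RNA per cell cannot be told apart.

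**Figure D5:**
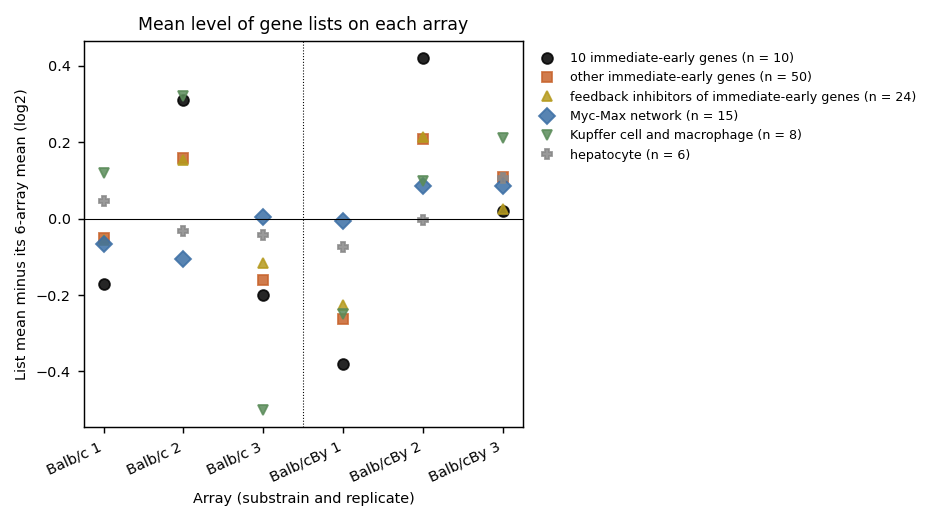
Mean log2 level of 6 gene lists on each array, minus the list's own mean over the 6 arrays. The 10 genes (black circles) and other immediate-early genes (orange squares) are highest on replicate 2 of each substrain, while hepatocyte markers stay near 0 and macrophage markers are lowest on Balb/c replicate 3.

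Quantile normalization gives the arrays like medians (7.98 to 8.03 over the tested probe sets), so these say nothing of array quality. Limma's array weights ran from 0.471 for Balb/cBy replicate 1, where 4 of the 10 genes were at their lowest, to 2.47 for Balb/cBy replicate 3. Balb/c replicate 3, where 5 of the 10 were at their lowest, had 0.635. The replicate 2 arrays had 0.805 and 0.824. Leaving out both replicate 2 arrays, a choice made after seeing the data, gave differences of 0.22 for Fos, -0.43 for Jun, -0.25 for Egr1, 0.20 for Atf3 and 0.26 for Myc, and 0 of the 10 passed.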

How the data were processed

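Liver RNA of 3 Balb/c and 3 Balb/cBy mice was measured on 1 array each, and samples were grouped by their titles. The deposited log2 values were made by the authors with RMA (background correction, quantile normalization, summary per probe set), per the submitters' processing notes. The software version and genome build are not given in the sources used here. RMA compresses dim signals, so differences of dim genes are understated.

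Of 41345 probe sets, 23521 carried 1 gene symbol (22180 genes), 1814 several and 16010 none listed. Only the first kind was tested. Limma 3.58.1 (R 4.3.3) fitted the substrain as the single term, with empirical Bayes moderation and p-values adjusted over all of these probe sets by Benjamini-Hochberg, with a threshold of 0.05. The script was tested on simulated data. The number of arrays limits the precision.

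The 10 members and the gene lists were chosen with earlier results of these data known. The other named genes were fixed by name, plus 3 nearest genes for members whose arrays span more than 1. Where others are named, the text says so. Gene lists are described by counts and medians, with no set test. Same-numbered arrays were not paired: the correlations of their deviations were -0.32, -0.20 and -0.23. Alternatives were moderation, array weights, a replicate block, normalization, a filter on low values, the probe sets used and leaving out arrays.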

Additional observations from a re-analysis of the deposited data

How the results depend on the processing

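Over the 16 alternatives run for single members, 155 of 160 recomputed differences kept their direction and stayed short of the threshold. The 5 others turned sign: Junb with array weights (0.19), and Junb and Egr1 each without Balb/c replicate 2 or without Balb/cBy replicate 1. Many of the kept directions were fixed in advance. Moderation, the replicate block and the choice of probe sets tested leave the difference itself unchanged, and averaging probe sets can alter Jund alone. Leaving out 1 array at a time, Junb ran from -0.23 to 0.23 and Egr1 from -0.73 to 0.20. The cause was not tested. None of the 10 passed under any alternative, and the smallest adjusted p of limma, that of Myc without Balb/cBy replicate 1, was 0.344. The number of members whose groups do not overlap, 0 with all arrays, ran from 0 to 2 when single arrays were left out. It was 1 without both replicate 2 arrays. Smaller groups reach this more readily, and the share over all genes was not computed for them. Over all probe sets, array weights called 31 where the equal-weight fit called 0, and leaving out single arrays called 0 to 4. The replicate block called 0 of the 10 and 0 probe sets, with an unadjusted p of 0.0305 for Myc in limma's model (adjusted p = 1). The labels do not pair the mice. Without Balb/cBy replicate 1, limma's unadjusted p was 0.00182 for Myc and 0.0291 for Atf3. With array weights it was 0.00543 for Myc (adjusted p = 0.491 by limma). In these 2 settings 1931 and 1842 of the 23521 probe sets had an unadjusted p under 0.05. Signal near the olfactory receptor level of 8.02 limits Ier2, Fos and Ier3. The lowest values of Atf3 (8.07) and Fosb (8.26), both on Balb/c replicate 3, also lie not far above that level. So do the lowest values of Egr1, 8.18 on Balb/c replicate 1 and 8.05 on Balb/cBy replicate 1.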
